A study of Mus musculus with 16 samples.

Results

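The mouse carries 4 Hox clusters, and 38 genes of these clusters together with the caudal genes Cdx1, Cdx2 and Cdx4 were followed here through blood formation from Sp1+/+ and Sp1-/- embryonic stem (ES) cells. These 41 genes were taken from a list, matched to the array through the RefSeq accession of each probe, and all 41 were among the 37149 genes tested. Only 20122 of the 37149 carried a gene symbol. The rest were targets known by their array name alone, each counted as a gene, and shares of all genes given below include them. The 41 members comprised 10 HoxA, 10 HoxB, 9 HoxC, 9 HoxD and 3 Cdx genes. In the RefSeq annotation of build GRCm38.p6 the HoxA members span chr6:52162417-52260880, the HoxB members chr11:96194316-96368254, the HoxC members chr15:102921131-103036856 and the HoxD members chr2:74668225-74765142. A gene with several probes was represented by the brightest, which mattered for 3 members (Hoxa9, Hoxa13 and Hoxb3), while the other 38 had a single probe.

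Hox genes encode homeodomain transcription factors that give cells their position along the body axis. Within a cluster the genes are numbered from the 3' end, and the low-numbered (anterior) paralogs are switched on earlier and further forward in the embryo than the high-numbered (posterior) ones. The Cdx proteins are homeodomain factors of the early posterior embryo that act upstream of many Hox genes, and in mouse and fish Cdx and Hox genes are needed for the formation of embryonic blood. Sp1 is a ubiquitous zinc finger factor that binds the GC boxes found in many promoters.

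The data were 16 one-colour arrays, 2 for each combination of genotype and population, all labelled as strain C57BL/6. That label was repeated as given and not checked against the origin of the ES cell lines. Sp1+/+ cells were E14 ES cells, and Sp1-/- cells carried mutant Sp1 alleles whose truncated product lacks the DNA-binding domain. Both were differentiated in culture without any treatment that separated the genotypes, and 4 successive populations were taken, which were Flk1+ cells (mesoderm with haemangioblast potential), the first and the second stage of the haemogenic endothelium (HE1 and HE2), and progenitors. The haemogenic stages were sorted on the surface proteins KIT, TIE2 and CD41, with CD41 absent in HE1 and present in HE2. The mutant was represented by a single ES cell line, and a culture system holds mixtures of stages. Each genotype occupied a slide of its own, which means that an effect of the slide and one of the genotype cannot be told apart. The replicates are described as independent biological samples in the design of the series but as technical in a legend of the study, so p-values measure only the spread between these arrays. As in any bulk sample, fewer cells of a type and less RNA per cell cannot be told apart.

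Sp1 itself was lower in the Sp1-/- cells, with log2 fold changes of -2.28, -3.28, -2.56 and -2.90 in Flk1+ cells, HE1, HE2 and progenitors, although where its probe lies relative to the altered part of the gene is not given in the sources used here. Between 67.0% and 77.1% of probes lay well above background on an array. The means of marker lists followed the labelled populations: the mean log2 level of 4 mesoderm and haemangioblast markers was 12.40 to 13.44 in Flk1+ cells and at most 8.64 afterwards, 5 endothelial markers peaked in HE1 at 12.24 to 12.50, and 6 erythroid markers peaked in progenitors at 12.59 to 15.28. Kdr, the gene for Flk1, did not fall with its list and read 13.56 to 15.37 over all arrays. The fall came from Pdgfra, Mesp1 and T. The endothelial list includes Tek, the gene for the sorted protein TIE2. Some arrays of a group stood apart from each other in these lists. The widest gap was in Sp1+/+ HE1, where the erythroid level was 10.45 in replicate 1 and 7.64 in replicate 2 (8.82 and 8.85 in Sp1-/- HE1), with the embryonic globin Hba-x at 13.49 and 7.55. Of the Sp1+/+ Flk1+ arrays, replicate 2 had the higher endothelial level (8.46 against 7.54) and the lower mesoderm level (12.40 against 13.30). Of the Sp1+/+ progenitor arrays, replicate 1 had the higher endothelial level (10.23 against 9.44) and the lower erythroid level (12.59 against 14.00), and both Sp1-/- progenitor arrays lay below the former (8.64 and 8.91) and above the latter (15.24 and 15.28). The part of these differences in the results below was not tested.

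Not every member was expressed. A probe was counted as well above background on an array where at least 1 of every 2 of its spots was, and on that measure 37 members were detected on at least 1 array and 12 on all 16. Hoxb13, Hoxc11, Hoxd11 and Hoxd12 were detected on none. In Sp1+/+ cells 30, 29, 26 and 26 members were detected on both arrays in Flk1+ cells, HE1, HE2 and progenitors, and in Sp1-/- cells the counts were 25, 28, 19 and 14. All 41 passed the filter on low values, a log2 intensity of 6 on any array, because the deposited background correction adds a constant that lifts unexpressed probes close to 6. That constant also shrinks the fold changes of dim genes, so a fold given here for them understates the change.

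**Figure D1:**
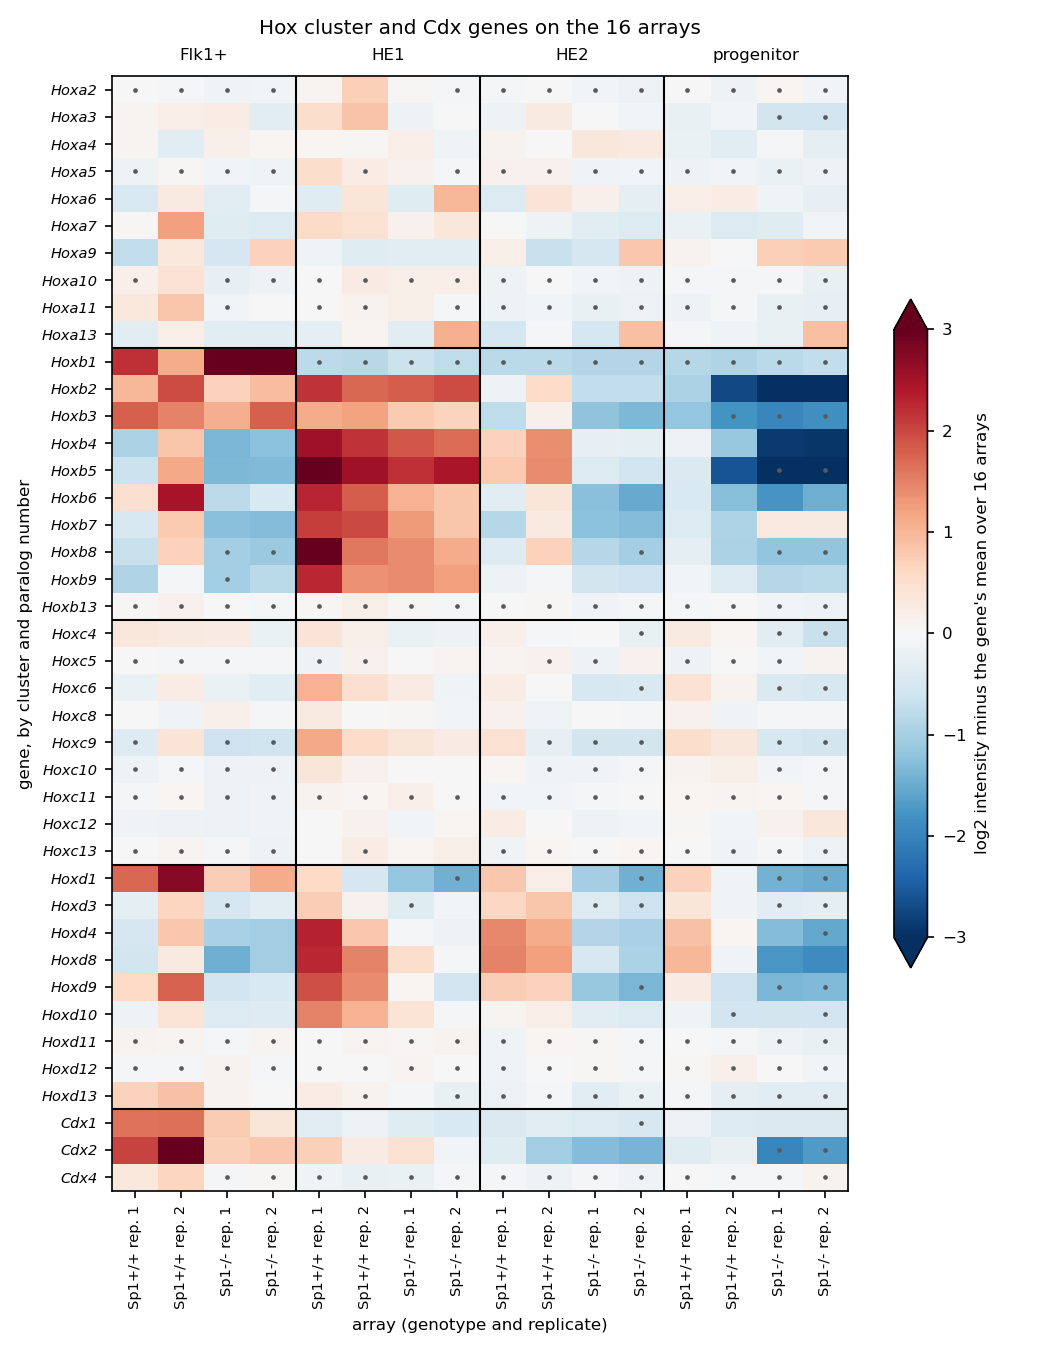
Heat map of the deposited log2 intensity of the 41 genes (rows, by cluster and paralog number) on the 16 arrays (columns, by population, genotype and replicate), each gene centred on its own mean; colours saturate beyond 3 in either direction and a dot marks a probe not well above background. HoxB and HoxD genes carry most of the colour, HoxA and HoxC genes little, and Hoxb4 to Hoxb9 have their highest means in HE1 in both genotypes.

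The first question was how the genes moved along the path from Flk1+ cells to progenitors. A change counted as called if it reached 2-fold and its p in limma, before adjustment, did not exceed 0.01; adjustment followed Benjamini and Hochberg across the 37149 genes. Between Flk1+ cells and progenitors of Sp1+/+ cells 8 of the 41 genes were called, all of them lower, against 8.58% of all genes called in either direction (4.28% lower and 4.3% higher). These were Hoxb1, Hoxb2, Hoxb3, Hoxb6, Hoxd1, Hoxd9, Cdx1 and Cdx2. In Sp1-/- cells 7 were called, against 12.3% of all genes (6.59% lower and 5.7% higher). Hoxb1, Hoxb2, Hoxb3, Hoxb4, Hoxd1 and Cdx2 fell, and Hoxb7 rose. Leaving out replicate 1 of the Sp1+/+ Flk1+ arrays raised the Sp1+/+ count to 13, and leaving out replicate 2 of the Sp1+/+ progenitor arrays lowered it to 5. In Sp1-/- cells the calls of Hoxb4 (-1.50 to -1.65) and Hoxb7 (1.54 to 1.58) were each lost when any 1 of the 4 arrays compared was left out.

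Within HoxB the change tended to rise with paralog number, though not gene by gene. In Sp1+/+ cells Hoxb6 was called lower (means of 10.30 in Flk1+ cells and 7.96 in progenitors). Hoxb4 (10.025 and 9.42) and Hoxb5 (9.475 and 7.715) were not. The paralogs at the 3' end fell, with log2 fold changes from Flk1+ cells to progenitors of -2.53 ± 0.24 (SE from limma, n = 2 arrays per group, as for every fold change here) for Hoxb1, -3.30 ± 0.47 for Hoxb2 and -3.12 ± 0.30 for Hoxb3 in Sp1+/+ cells. In Sp1-/- cells the same genes changed by -3.96 ± 0.24, -4.54 ± 0.47 and -3.34 ± 0.30. Hoxb1, which marks the early posterior mesoderm and later hindbrain rhombomere 4, and Hoxb3 were not well above background on either Sp1-/- progenitor array, so their falls are at least 15.4-fold and at least 10.1-fold. Bounds of this kind, here and below, allow for undetected signal and not for the spread between arrays. Hoxb1 was not detected in Sp1+/+ progenitors either, where its fall is at least 5.504-fold. At the other end Hoxb8 had a log2 fold change of -0.63 in Sp1+/+ cells, and Hoxb9 of 0.22 and 0.08 in Sp1+/+ and Sp1-/- cells, none of them called. Hoxb8 was at background at both ends of the Sp1-/- course, which gives no change to measure, and the processed signal put its Sp1+/+ change at -1.37, also not called. Spearman's rank correlation between paralog number and the log2 fold change across the 10 HoxB genes was 0.818 in Sp1+/+ and 0.891 in Sp1-/- cells (0.767 and 0.917 over the 9 detected genes). These are descriptions across genes read from the same arrays, and genes of a cluster are not independent replicates. The 9 detected genes include Hoxb8. Hoxb9 started near background, with Flk1+ means of 6.68 in Sp1+/+ and 6.24 in Sp1-/- cells. Genes that start near background have little room to fall, so the correlation cannot separate position from starting level. In the other clusters the same correlation was -0.091 (HoxA, 10 genes), 0.117 (HoxC, 9 genes) and 0 (HoxD, 9 genes) in Sp1+/+ cells, and 0.442, 0.65 and 0.35 in Sp1-/- cells.

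The start and end points hide what HoxB did in between. Hoxb1 was detected in Flk1+ cells alone. Its log2 intensity was 9.05 and 7.97 on the Sp1+/+ arrays and 10.02 and 10.06 on the Sp1-/- arrays, and 5.95 to 6.22 on all arrays of the later populations. No later array was well above background, in either genotype. Hoxb3 was also highest in Flk1+ cells in both genotypes. The 7 genes Hoxb2 and Hoxb4 to Hoxb9 had their highest mean in HE1 in both genotypes, and for 5 of them in Sp1+/+ cells and all 7 in Sp1-/- cells both HE1 arrays exceeded every array of the other populations.

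The step from Flk1+ cells to HE1 raised Hoxb4, Hoxb5, Hoxb7, Hoxb8 and Hoxb9 in both genotypes. In Sp1+/+ cells these 5 rose by 1.86 (Hoxb7) to 2.52 (Hoxb5) on the log2 scale and in Sp1-/- cells by 2.24 (Hoxb9) to 3.65 (Hoxb5). Hoxb8 was not well above background in Sp1-/- Flk1+ cells, so its rise there is at least 5.05-fold. Hoxb1 was the only HoxB gene called lower at this step, and 8.55% of all genes were called in Sp1+/+ cells (3.89% lower and 4.66% higher) and 9.5% in Sp1-/- cells (4.87% lower and 4.62% higher). From HE1 to HE2 the movement turned: 6 HoxB genes were called lower in Sp1+/+ cells, namely Hoxb2, Hoxb3 and Hoxb6 to Hoxb9, with log2 fold changes of -1.46 to -2.32, against 3.31% of all genes called (2.23% lower and 1.07% higher). In Sp1-/- cells 8 were called lower, these and Hoxb4 and Hoxb5, with changes of -1.90 to -2.82, against 5.6% (3.52% lower and 2.08% higher). Hoxb4 and Hoxb5 had changes of -1.31 and -1.66 at this step in Sp1+/+ cells that were not called; the difference between genotypes was not tested for this step. From HE2 to progenitors Hoxb2, Hoxb3, Hoxb4 and Hoxb5 fell in Sp1+/+ cells, against 1.74% of all genes called (0.729% lower and 1.01% higher). Hoxb2, Hoxb4 and Hoxb5 fell and Hoxb7 rose in Sp1-/- cells, against 4.99% (2.66% lower and 2.33% higher). The endothelial markers moved along with the HoxB rise and fall, their mean log2 levels being 7.54 to 8.46 in Flk1+ cells and 12.24 to 12.50 in HE1. Arrays of HE2 had 10.98 to 11.72 and those of progenitors 8.64 to 10.23. The part of the markers' cells in this was not tested.

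**Figure D2:**
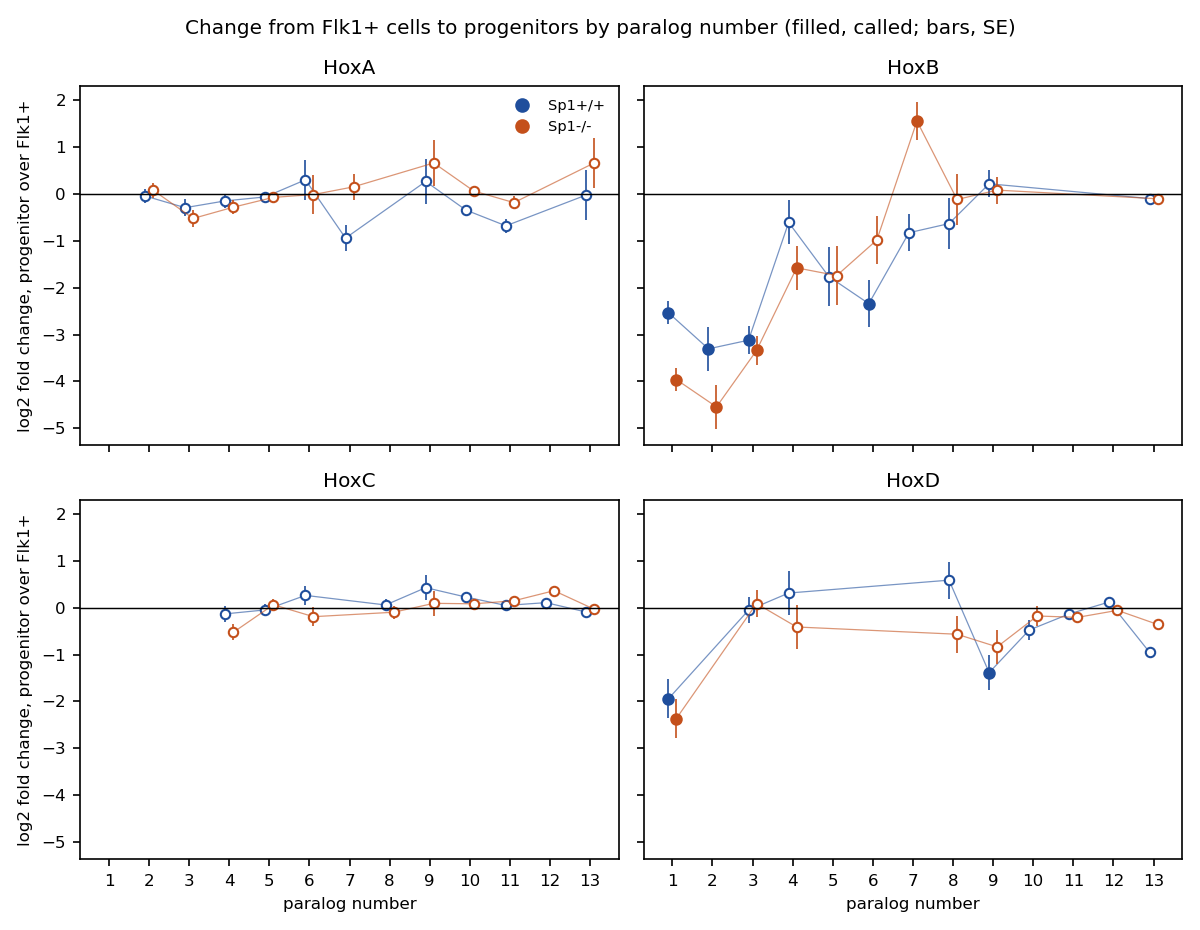
Log2 fold change from Flk1+ cells to progenitors (y axis) against paralog number (x axis) in each cluster, in Sp1+/+ and Sp1-/- cells; bars are SE (2 arrays per group) and filled points were called. In HoxB the points climb from -4.54 to -2.53 at paralogs 1 and 2 to between -0.63 and 0.22 at paralogs 8 to 13 on the deposited scale, with Hoxb7 of Sp1-/- cells alone above 1.

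HoxD genes peaked in different populations. Hoxd1, the 3'-most member, was highest in Flk1+ cells in both genotypes and fell at the step to HE1 by 2.17 ± 0.42 in Sp1+/+ and 2.22 ± 0.42 in Sp1-/- cells. Hoxd4, Hoxd8, Hoxd9 and Hoxd10 had their highest mean in HE1 in both genotypes. Hoxd8 rose from Flk1+ cells to HE1 by 2.01 ± 0.39 in Sp1+/+ and 1.50 ± 0.39 in Sp1-/- cells, and Hoxd10 rose by 1.14 ± 0.21 in Sp1+/+ cells and fell again by 1.12 ± 0.21 to HE2. Hoxd13 was highest in Flk1+ cells, at 6.97 and 7.16 on the Sp1+/+ arrays and 6.38 and 6.26 on the Sp1-/- arrays, and no array of HE2 or progenitors was well above background for it.

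The Cdx genes were genes of the Flk1+ stage. Cdx1 read 8.42 and 8.43 in Sp1+/+ Flk1+ cells and 6.36 to 6.61 on every later Sp1+/+ array, a fall of 1.89 ± 0.12 at the first step. Cdx2 fell in Sp1+/+ cells by 2.22 ± 0.38 at the first step, and over the whole course by 7.97-fold in Sp1+/+ cells and by at least 5.56-fold in Sp1-/- cells. Cdx4 was barely detected, at 6.39 and 6.70 in Sp1+/+ Flk1+ cells and well above background on no other array. Its fall over the Sp1+/+ course was not called on the deposited scale but was with the processed signal (-3.47). On the deposited scale no HoxA and no HoxC gene was called at any step or over the whole course in either genotype. With the smaller constant stated by the study, Hoxa7 (-1.18) and Hoxa11 (-1.13) were called lower over the Sp1+/+ course. With the processed signal these and Hoxa10 (-2.73) were, and in Sp1-/- cells Hoxa3 (-2.77), Hoxc4 (-2.55) and Hoxc6 (-1.57). Their changes on the deposited scale over the course ran from -0.94 (Hoxa7 in Sp1+/+ cells) to 0.67 (Hoxa9 in Sp1-/- cells) in HoxA and from -0.52 (Hoxc4 in Sp1-/- cells) to 0.43 (Hoxc9 in Sp1+/+ cells) in HoxC.

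The second question was how loss of Sp1 binding changed these levels within each population, and whether the change followed position. Between genotypes 14 of the 41 genes were called in at least 1 population, giving 25 called differences, of which 24 were lower in Sp1-/- cells and 1 was higher. In Flk1+ cells 8 members were called, against 1.65% of all genes (0.872% lower and 0.778% higher): Hoxa7, Hoxb6, Hoxb7, Hoxd1, Hoxd9, Cdx1 and Cdx2 lower and Hoxb1 higher. In HE1 5 members were called, against 2.11% (1.14% lower and 0.972% higher), namely Hoxd1, Hoxd4, Hoxd8, Hoxd9 and Hoxd10. In HE2 they were also 5, against 1.94% (1.17% lower and 0.773% higher), with Hoxd3 in place of Hoxd10. In progenitors they were 7, against 4.11% (2.59% lower and 1.51% higher): Hoxb2, Hoxb4, Hoxd1, Hoxd4, Hoxd8, Hoxd9 and Cdx2. Called or not, the log2 fold change was below 0 for 36, 30, 33 and 31 of the 41 members in the same order of populations, with medians of -0.44, -0.30, -0.17 and -0.15, while the medians over all genes tested were 0.01 to 0.02.

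Several of these counts rested on single arrays. In Flk1+ cells the count was 3 without replicate 2 of the Sp1+/+ arrays, 13 without replicate 1, and 4 without either Sp1-/- array. The Sp1+/+ Flk1+ arrays differed from each other by more than 1 on the log2 scale for 12 members (29.3%) against 0.927% of all genes, and replicate 2, the array with more endothelial and less mesoderm marker signal, was higher for 31 of 41 members. In HE1 the count was 1 without replicate 1 of the Sp1+/+ arrays, the one with the higher erythroid signal (10.45 against 7.64), or without replicate 2 of the Sp1-/- arrays, and 3 without replicate 1 of the latter. In progenitors it was 3 without replicate 1 of the Sp1+/+ arrays, 4 without replicate 1 and 3 without replicate 2 of the Sp1-/- arrays. In HE2 it stayed between 4 and 6.

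HoxD held 16 of the 25 called differences, in 6 of its 9 genes, and all 16 were lower in Sp1-/- cells. On the deposited scale Hoxd1 and Hoxd9 were called lower in all 4 populations, and Hoxd4 and Hoxd8 in HE1, HE2 and progenitors. The 250 bases upstream of the RefSeq start site of these 4 genes are given because Sp1 binds GC boxes. They are the plus strand of GRCm38.p6, 5' to 3', with capitals for matches on either strand to any of 4 motifs, namely the GC box (GGGCGG), a Cdx site (TTTATG), a Hox-Pbx site (TGATNNAT) and the CCAAT box (CCAAT).
Hoxd1, chr2:74762730-74762979: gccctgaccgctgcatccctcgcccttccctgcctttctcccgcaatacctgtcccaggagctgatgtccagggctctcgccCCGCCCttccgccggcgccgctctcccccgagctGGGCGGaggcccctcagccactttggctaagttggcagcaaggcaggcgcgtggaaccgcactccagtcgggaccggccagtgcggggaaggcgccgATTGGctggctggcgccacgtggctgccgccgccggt
Hoxd4, chr2:74721728-74721977: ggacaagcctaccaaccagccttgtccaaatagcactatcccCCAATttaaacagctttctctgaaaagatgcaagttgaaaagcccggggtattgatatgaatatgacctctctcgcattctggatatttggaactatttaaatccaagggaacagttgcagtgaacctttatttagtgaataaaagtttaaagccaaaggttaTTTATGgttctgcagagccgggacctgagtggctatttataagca
Hoxd8, chr2:74704365-74704614: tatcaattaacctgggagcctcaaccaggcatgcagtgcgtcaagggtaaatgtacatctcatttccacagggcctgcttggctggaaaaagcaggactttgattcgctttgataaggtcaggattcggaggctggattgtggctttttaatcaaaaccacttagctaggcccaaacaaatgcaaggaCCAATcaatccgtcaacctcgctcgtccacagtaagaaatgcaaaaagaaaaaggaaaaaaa
Hoxd9, chr2:74697513-74697762: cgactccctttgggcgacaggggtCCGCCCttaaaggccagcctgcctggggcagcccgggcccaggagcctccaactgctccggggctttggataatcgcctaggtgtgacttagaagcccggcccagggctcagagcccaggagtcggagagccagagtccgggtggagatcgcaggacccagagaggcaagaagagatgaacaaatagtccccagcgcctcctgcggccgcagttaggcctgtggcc
Hoxb1, the gene that was higher, is shown for contrast, chr11:96365508-96365757: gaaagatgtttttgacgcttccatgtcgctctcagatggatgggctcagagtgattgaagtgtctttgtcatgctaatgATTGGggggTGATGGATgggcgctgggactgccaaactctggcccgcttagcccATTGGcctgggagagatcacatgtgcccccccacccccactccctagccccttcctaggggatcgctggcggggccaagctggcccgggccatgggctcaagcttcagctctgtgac
The Hoxd1 window held 2 GC boxes and 1 CCAAT box and was 71.6% G and C, the Hoxd4 window held 1 Cdx site and 1 CCAAT box (40.4%), the Hoxd8 window 1 CCAAT box (44.4%) the Hoxd9 window 1 GC box (65.2%), and the Hoxb1 window no GC box, 1 Hox-Pbx site and 2 CCAAT boxes (59.2%). The Hoxd4 window lies inside the annotated span of Hoxd3, the Hoxd8 window inside that of Gm38462, 167 bases of the Hoxd1 window lie inside that of Haglr, and the Hoxd9 window overlaps no annotated gene.

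Over the 24 members with a window in the RefSeq table, 41.7% had a GC box, compared with 35.4% of all 27025 genes. It was found in 2 of the 10 members called between genotypes and in 8 of the 14 that were not. The Cdx site was found in 20.8% of members and 12.4% of all genes, the Hox-Pbx site in 16.7% and 8.81%, and the CCAAT box in 66.7% and 37.5%. A match of letters is not a bound site.

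Hoxd9, a posterior paralog, had log2 intensities on the Sp1+/+ arrays of 8.08 and 9.24 (Flk1+ cells), 9.41 and 8.88 (HE1), 8.20 and 8.17 (HE2), and 7.71 and 6.84 (progenitors). In Sp1-/- cells it read 6.90 and 7.02, 7.52 and 6.90, 6.34 and 6.10, and 6.10 and 6.15. The genotypes did not overlap in any population, and the gene was lost into the background in mutant progenitors. The log2 fold changes were -1.70 ± 0.37 (adjusted p = 0.0185 in limma), -1.94 ± 0.37 (0.00937), -1.97 ± 0.37 (0.00956) and -1.15 ± 0.37 (0.0654). At the values read the last is a fall of at least 2.22-fold, with no allowance for the spread between arrays. Without replicate 2 of the Sp1+/+ Flk1+ arrays the first was -1.12 and still called, whereas the last was lost without replicate 1 of the Sp1+/+ progenitor arrays (-0.71) or without either Sp1-/- array (-1.12 and -1.18).

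Hoxd8, a central paralog, was detected on both Sp1-/- arrays of every population. Its levels in Sp1+/+ cells were 7.58 and 8.41 (Flk1+ cells), 10.39 and 9.62 (HE1), 9.63 and 9.38 (HE2), and 9.13 and 8.04 (progenitors). The Sp1-/- arrays read 6.68 and 7.10, 8.67 and 8.10, 7.67 and 7.19, and 6.40 and 6.25. Every Sp1-/- array lay below both Sp1+/+ arrays of its population. The log2 fold changes were -1.10 ± 0.39 (not called), -1.62 ± 0.39, -2.08 ± 0.39 and -2.26 ± 0.39, the last with an adjusted p of 0.00311 in limma. The HE1 call was lost without replicate 1 of the Sp1+/+ arrays (-1.24) or without replicate 2 of the Sp1-/- arrays (-1.33).

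Hoxd4, the next central gene of the cluster, read 7.05 and 8.36, 9.86 and 8.35, 8.99 and 8.67, and 8.42 and 7.62 in Sp1+/+ Flk1+ cells, HE1, HE2 and progenitors. In Sp1-/- cells it read 6.59 and 6.51, 7.50 and 7.37, 6.68 and 6.57, and 6.26 and 6.02. Again the genotypes did not overlap, and the smallest gap was in Flk1+ cells. The change was -2.20 ± 0.47 in HE2 (adjusted p = 0.0205 in limma), -1.67 ± 0.47 in HE1 and -1.88 ± 0.47 in progenitors. In HE1 the call was lost with the processed signal (-1.93), with only the compared arrays in the fit, and without replicate 1 of the Sp1+/+ arrays (-0.92) or either Sp1-/- array (-1.74 and -1.60), and in progenitors without replicate 1 of the Sp1+/+ arrays (-1.48) or replicate 2 of the Sp1-/- arrays (-1.76). RefSeq places Hoxd4 within the span of Hoxd3, and the file does not say how their probes lie in the overlap.

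Hoxd1, at the 3' end, read 9.28 and 10.29 in Sp1+/+ and 8.29 and 8.67 in Sp1-/- Flk1+ cells. From HE1 on it remained at 7.06 to 8.38 on the Sp1+/+ arrays but reached no more than 6.54 on the Sp1-/- arrays, and it was well above background on 1 of 2 Sp1-/- arrays in HE1 and HE2 and on neither in progenitors. The changes were -1.30 ± 0.42, -1.35 ± 0.42, -1.75 ± 0.42 and -1.72 ± 0.42, with adjusted p-values in limma of 0.0935, 0.0671, 0.0325 and 0.0189, and the progenitor change is a fall of at least 3.31-fold. The Flk1+ call of Hoxd1 was lost with the background constant the study states (-1.39), with no background correction (-1.37), with the processed signal (-1.48) and with only the compared arrays in the fit, and its HE1 call with the last of these. Each call of Hoxd1 was also lost when certain arrays were left out. In Flk1+ cells these were replicate 2 of the Sp1+/+ arrays (-0.80) and either Sp1-/- array (-1.11 and -1.50), and in HE1 replicate 1 of the Sp1+/+ arrays (-0.80) and either Sp1-/- array (-1.49 and -1.21). In HE2 they were replicate 1 of the Sp1+/+ arrays (-1.44) and replicate 2 of the Sp1-/- arrays (-1.54), and in progenitors the same replicates (-1.31 and -1.69).

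Hoxd3 and Hoxd10 were each called in 1 population. Hoxd3 read 7.18 and 7.40 in Sp1+/+ HE2 and 6.14 and 5.94 in Sp1-/- HE2, where it was not well above background, a fall of at least 2.27-fold. Hoxd10 read 8.34 and 7.90 in Sp1+/+ HE1 and 7.26 and 6.81 in Sp1-/- HE1, a change of -1.08 ± 0.21 (adjusted p = 0.0112 in limma), which fell under 2-fold without replicate 1 of the Sp1+/+ arrays (-0.86) or replicate 2 of the Sp1-/- arrays (-0.86). Hoxd13, a gene of the distal limb and the cloaca, had a smaller but tight difference in Flk1+ cells, -0.74 ± 0.11 with an adjusted p of 0.00326 in limma, and missed the 2-fold threshold on the deposited scale. With the constant of the study's methods it was called at -1.12, and with the processed signal at -2.07. For Hoxd11 and Hoxd12 nothing can be said, since neither was detected.

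**Figure D3:**
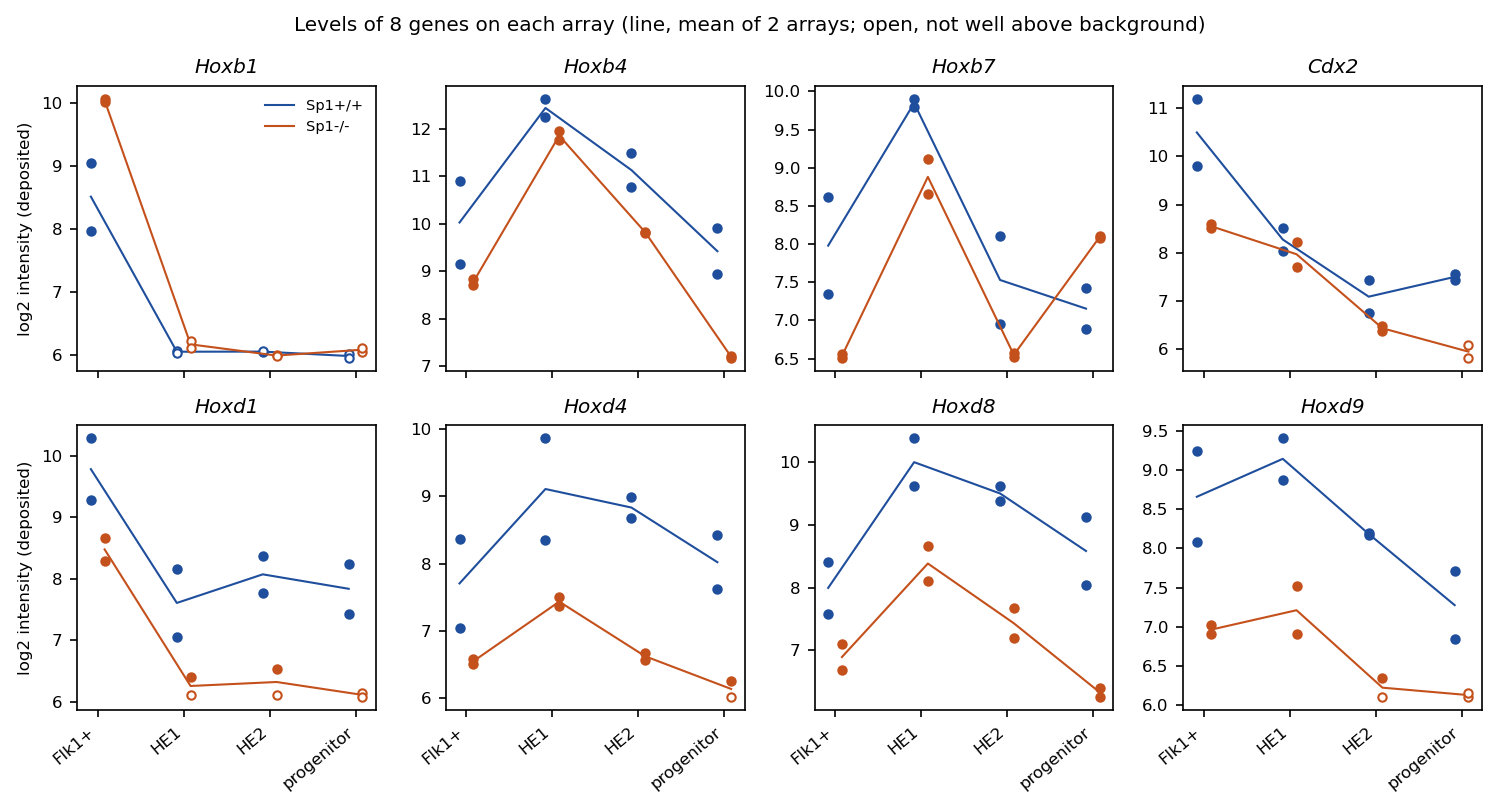
Deposited log2 intensity (y axis) of 4 HoxB and Cdx genes (upper row) and 4 HoxD genes (lower row) on each array of the 4 populations (x axis), Sp1+/+ in blue and Sp1-/- in orange; lines join the means of 2 arrays and open points were not well above background. The y axes differ between genes; in the HoxD genes the Sp1-/- points lie below the Sp1+/+ points in every population.

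Marker lists were compared in the same populations. In HE2 the 5 endothelial markers had mean log2 levels of 10.98 and 11.72 in Sp1+/+ and 11.03 and 11.10 in Sp1-/- cells, which overlap, while Hoxd4, Hoxd8 and Hoxd9 were lower by 1.97 to 2.20. In HE1 they were 12.45 and 12.50 against 12.24 and 12.24. In HE2 the 6 erythroid markers stood at 11.32 and 10.19 in Sp1+/+ and at 12.11 and 12.18 in Sp1-/- cells, and the 6 early blood markers at 11.04 and 10.81 against 11.42 and 11.75; their part in the HoxD difference was not tested. In progenitors the endothelial and erythroid lists did not overlap between genotypes, as given above, and 4 cardiac markers stood at 8.61 and 8.22 in Sp1+/+ and at 6.98 and 6.71 in Sp1-/- cells. The part of these lists in the progenitor differences was not tested.

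On the deposited scale HoxB differed from HoxD in having fewer and more scattered calls, 5 in 40 comparisons. With the processed signal Hoxb8 was also called lower in Flk1+ cells (-3.03), and Hoxb3 (-2.24), Hoxb5 (-3.85) and Hoxb8 (-2.97) in progenitors. That signal also gave a call of Hoxb1 as higher in HE1 (1.33), where no array was well above background for it. In Flk1+ cells Hoxb6 read 9.31 and 11.29 in Sp1+/+ and 8.04 and 8.36 in Sp1-/- cells (-2.10 ± 0.51, adjusted p = 0.0314 in limma), and Hoxb7 read 7.35 and 8.61 against 6.56 and 6.51 (-1.44 ± 0.40, 0.0558). In both the Sp1+/+ arrays were far apart, and without replicate 2 the changes were -1.11 and -0.81 and not called. Hoxb6 was also not called without replicate 1 of the Sp1-/- arrays (-1.94), nor Hoxb7 without either of them (-1.47 and -1.42). The paralogs beside them showed changes in the same direction that were not called, -1.25 for Hoxb4, -1.58 for Hoxb5 and -1.08 for Hoxb8, with replicate 2 the higher Sp1+/+ array for all 3.

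In progenitors Hoxb4, which promotes the expansion of blood stem cells, read 9.90 and 8.94 in Sp1+/+ and 7.22 and 7.17 in Sp1-/- cells, a change of -2.22 ± 0.47 (adjusted p = 0.00952 in limma). Hoxb2 read 9.41 and 7.65 against 6.63 and 6.59 (-1.92 ± 0.47, 0.021). Hoxb5 read 8.79 and 6.64 against 6.16 on both Sp1-/- arrays, which was not above background, and was not called on the deposited scale (-1.56 ± 0.62). Replicate 1, the Sp1+/+ array with more endothelial and less erythroid marker signal, was the higher for all 3, and without it Hoxb4 changed by -1.75 and was still called, whereas Hoxb2 changed by -1.04 and was not. Hoxb2 was also not called without either Sp1-/- array (-1.94 and -1.90). On the deposited scale no HoxB gene was called in HE1 or HE2, and the HoxB medians were -0.47 and -0.98. Hoxb4, Hoxb5 and Hoxb6 had values of -1.31, -1.61 and -1.41 in HE2. Hoxb3 changed by -0.975 in HE2 and was called there with the constant the study states (-1.21). Its other probe gave -0.385 on the deposited scale.

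Hoxb1 and Hoxb7 behaved differently from their neighbours. Hoxb1 was higher in Sp1-/- than in Sp1+/+ Flk1+ cells by 1.53 ± 0.24 (adjusted p = 0.00391 in limma), the sole member called higher in any population. Both Sp1-/- arrays (10.02 and 10.06) exceeded both Sp1+/+ arrays (9.05 and 7.97), and without replicate 2 of the Sp1+/+ arrays the difference was 0.99 and just missed 2-fold. Its change from Flk1+ cells to progenitors was more negative in Sp1-/- cells, by 1.43 ± 0.34 (adjusted p = 0.0372 for the difference of the changes in limma). Since both genotypes were at background in progenitors, this rests on the Flk1+ difference and gives no exact size of either fall. Hoxb7 read 7.42 and 6.89 in Sp1+/+ and 8.11 and 8.08 in Sp1-/- progenitors, a difference of 0.94 ± 0.40 that was not called, after values of -1.44, -0.96 and -0.98 in the 3 earlier populations. The difference of its changes from Flk1+ cells to progenitors was 2.38 ± 0.57 (adjusted p = 0.0352 in limma), and 3.81% of all genes were called in that comparison (2.36% below 0 and 1.45% above 0). These were the only members called there on the deposited scale.

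Both Cdx genes with clear signal were lower in Sp1-/- Flk1+ cells. Cdx2 read 9.80 and 11.19 on the Sp1+/+ arrays and 8.51 and 8.60 on the Sp1-/- arrays (-1.94 ± 0.38, adjusted p = 0.0111 in limma), and without replicate 2 of the Sp1+/+ arrays it was still called at -1.25. Cdx1, which read 8.42 and 8.43 against 7.54 and 7.16, was the most even (-1.07 ± 0.12, adjusted p = 0.000595), yet dropped below 2-fold without replicate 2 of the Sp1-/- arrays (-0.89). For both genes the genotypes did not overlap. Cdx4 was at 6.39 and 6.70 against 6.03 and 6.09, the latter not above background (-0.48 ± 0.11, adjusted p = 0.024), and was not called on the deposited scale. With the constant the study states it changed by -0.84 and was not called. With the processed signal it was called, at -3.16. In progenitors Cdx2 was at 7.43 and 7.57 in Sp1+/+ and at 5.82 and 6.08 in Sp1-/- cells, at least 2.68-fold lower, a call lost without replicate 2 of the Sp1+/+ arrays (-1.48) or replicate 1 of the Sp1-/- arrays (-1.42), while in HE1 it overlapped (8.51 and 8.04 against 8.23 and 7.71). Between the Flk1+ arrays of the genotypes the endoderm marker list differed, while the caudal and paraxial mesoderm list overlapped. The 6 endoderm markers stood at 6.74 and 6.83 in Sp1+/+ cells (3 of 6 above background) and at 8.12 and 7.88 in Sp1-/- cells (5 and 6 of 6), and the 8 caudal and paraxial mesoderm markers at 8.97 and 8.75 against 9.14 and 8.92. Of the endoderm list, Foxa2 (6.71 and 6.53 against 9.55 and 9.05) and Cer1 (6.43 and 6.08 against 10.23 and 9.30) differed most. The part of the endoderm signal was not tested.

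HoxA and HoxC were close to unchanged on the deposited scale. In HoxA only Hoxa7 was called, in Flk1+ cells, with 7.16 and 8.36 in Sp1+/+ and 6.77 and 6.73 in Sp1-/- cells (-1.01 ± 0.28, adjusted p = 0.0593 in limma); without replicate 2 of the Sp1+/+ arrays it changed by -0.41, and it was not called without either Sp1-/- array (-1.03 and -0.99). The other HoxA differences lay between -0.78 (Hoxa3 in HE1) and 0.70 (Hoxa9 in progenitors), with 8, 6, 7 and 5 of the 10 genes below 0 in Flk1+ cells, HE1, HE2 and progenitors. Hoxa3 had a difference of -0.78 ± 0.18 in HE1, under 2-fold on the deposited scale, but was called there with the background constant the study states (-1.08), as was Hoxa11 in Flk1+ cells (-1.02). With the processed signal Hoxa10 (-2.05) and Hoxa11 (-2.47) were called lower in Flk1+ cells and Hoxa3 (-2.23) in progenitors, but Hoxa3 in HE1 was not (-1.13). In progenitors Hoxa3 read 6.40 and 6.55 on the Sp1+/+ arrays, both above background, and 6.07 and 6.06 on the Sp1-/- arrays, neither above it. Hoxa9, which many blood progenitors and leukaemias use, was not lower: its Sp1-/- progenitor arrays read 8.17 and 8.23 against 7.55 and 7.45, a difference of 0.70 ± 0.49 that was not called, and its other probe gave -0.01. In HoxC, of 36 comparisons none was called at the deposited scale, and the values ran from -0.94 (Hoxc9 in progenitors) to 0.24 (Hoxc12 in progenitors). In Hoxc4, Hoxc6, Hoxc9 and Hoxc10 the genotypes were nevertheless separated in progenitors, where no Sp1-/- array was above background and both Sp1+/+ arrays were. Hoxc4 read 6.76 and 6.53 against 6.14 and 5.80, and Hoxc6 7.06 and 6.75 against 6.21 and 6.15. Hoxc9 read 7.15 and 6.97 against 6.15 and 6.09, and Hoxc10 6.33 and 6.39 against 6.15 and 6.17. With the smaller background constant that the study states, Hoxc4, Hoxc6 and Hoxc9 were called, at -1.23, -1.15 and -1.48. They were called from the scanner's own processed signal as well, whereas Hoxc10 was not (-1.11). In HE1, where the 75th percentile scaling of that processed signal moved the median of all genes by 0.19, the HoxA median turned from -0.04 to 0.24.

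The effect of the genotype was then set against paralog number. The median log2 fold changes of the anterior genes (paralogs 1 to 3) were -0.20, -0.44, -0.94 and -0.42 in Flk1+ cells, HE1, HE2 and progenitors. For the central genes (4 to 8) they were -1.01, -0.46, -0.57 and -0.56, and for the posterior genes (9 to 13) -0.20, -0.07, -0.06 and -0.13. The posterior group holds the 4 members detected on no array and others at background in both genotypes, for which no difference could be measured, so its medians do not describe position. Spearman's rank correlation of paralog number with the effect was 0.117, 0.322, 0.447 and 0.304 over the 38 Hox genes, a description across genes on shared arrays. Over the 34 Hox genes detected on at least 1 array it was 0.006, 0.205, 0.33 and 0.28. Within HoxD it was 0.567, 0.577, 0.7 and 0.75 over 9 genes and 0.321, 0.214, 0.464 and 0.571 over the 7 detected ones. HoxB gave -0.127, -0.503, -0.03 and 0.212 over 10 genes and -0.4, -0.783, -0.267 and 0.117 over 9. HoxA gave -0.467, 0.758, 0.479 and 0.248, and HoxC 0.233, 0.367, 0.417 and 0.267. The sign of these values differed between clusters and, in HoxA and HoxB, between populations. Detection on at least 1 array of any population let genes at background in both genotypes of the population compared enter its correlation. In HE2 and in progenitors these included Hoxa2, Hoxa5, Hoxa10, Hoxa11, Hoxb1, Hoxc13 and Hoxd13. No difference could be measured for them there, so neither the correlations nor their signs separate position from detection. By cluster, medians on the deposited scale in the same order were -0.74, -1.08, -1.25 and -0.46 in HoxD and -0.88, -0.47, -0.98 and -0.57 in HoxB, against -0.13, -0.04, -0.07 and 0.00 in HoxA and -0.12, -0.16, -0.11 and -0.06 in HoxC. In progenitors these depended on the scale: with the constant the study states, which left fewer genes past the filter, they were -1.74 in HoxD (7 genes), -0.89 in HoxB (9), -1.15 in HoxC (5) and 0.11 in HoxA (9). With the processed signal they were -2.20, -1.92, -1.05 and 0.13.

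**Figure D4:**
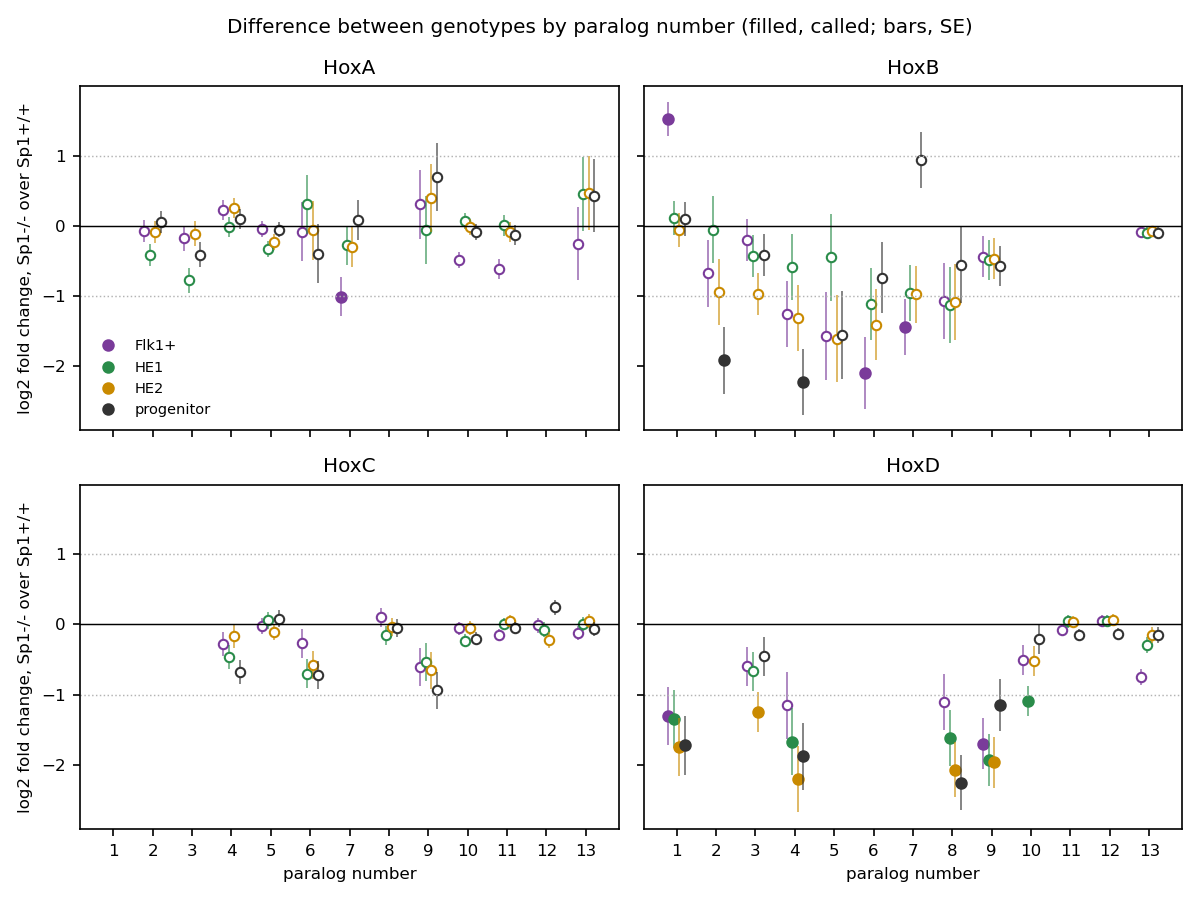
Log2 fold change between Sp1-/- and Sp1+/+ cells (y axis) against paralog number (x axis) in each cluster, with the 4 populations in different colours; bars are SE (2 arrays per group), filled points were called and dotted lines mark 2-fold. HoxD points at paralogs 1, 4, 8 and 9 lie below -1 in every population, HoxB points are scattered with Hoxb1 in Flk1+ cells at 1.53, and HoxA and HoxC points lie between -1.01 and 0.70.

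The same differences were looked for outside the clusters. Of the 3 nearest named genes on each side of each cluster, 24 in all, none of the 6 around HoxD was called in any population, and their median log2 fold changes were -0.02 to -0.09. Around HoxA and HoxC none was called either. Around HoxB only Skap1, an adaptor protein of T cells, was called, higher in Sp1-/- HE1 (1.74 ± 0.39) and progenitors (1.34 ± 0.39). None of the 24 was called lower. In Flk1+ cells, HE1, HE2 and progenitors 1.65%, 2.11%, 1.94% and 4.11% of all genes were called (0.872%, 1.14%, 1.17% and 2.59% lower). A set of 24 genes is too small to tell an absence of calls from these shares.

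Factors that work with or above Hox genes were read from lists of their own. Of 9 Hox cofactors of the Meis, Pbx and Pknox families, none was called in Flk1+ cells, HE1 or HE2. Meis2 was lower in progenitors (-1.33 ± 0.36), where 4.11% of all genes were called. Of 22 genes measured that regulate Hox and Cdx genes, 1 was called in each of the first 3 populations. The shares of all genes called there were 1.65%, 2.11% and 1.94%. Fgf8, a signal of the primitive streak and tail bud, was higher in Sp1-/- Flk1+ cells by 1.74 ± 0.25. Rarg, a retinoic acid receptor, was lower in HE1 (-1.07 ± 0.20), HE2 (-1.29 ± 0.20) and progenitors. In progenitors 4 of the 22 were called, all lower, against 4.11% of all genes, which were Rarg, Rara, Wnt5a and Lef1. Wnt5a, a secreted signal, read 9.63 and 9.35 in Sp1+/+ and 7.98 and 7.47 in Sp1-/- cells, and Lef1, which mediates Wnt signals in the nucleus, 8.39 and 8.15 against 6.00 and 6.33. The ParaHox genes Gsx1, Gsx2 and Pdx1, relatives of Cdx, gave no call in any population.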

How the data were processed

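RNA of 16 samples (8 groups of 2) was hybridised to one-colour Agilent arrays of 62976 spots. The deposited log2 values were made by the authors from scanner intensities with the normexp background correction and quantile normalization in limma. The stated offset is 16, but the deposited log2 values matched an offset of 50 within 0.005, whereas 16 differed by up to 1.63. Deposited scanner intensity columns (Feature Extraction, 10.7.1.1 per the labels and 10.7.3.1 per the file headers) were used for detection and alternatives. Flagged outlier spots (95 to 182 per array) were left out, and repeated spots were averaged.

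RefSeq accessions named 20869 targets, and 12 were named by symbol or synonym. All 37149 genes with a log2 value of 6 or more on any array were fitted in limma 3.58.1 (R 4.3.3) with 8 group means (8 residual degrees of freedom). Calls needed p of 0.01 or less and 2-fold, the thresholds of the study. A bound sets the brighter group against the undetected group. Each undetected array was taken at its own reading or, where higher, at its dimmest detected signal. The spread between arrays is not allowed for. Scripts were tested on simulated data. Every member could be named, those called between genotypes and the Cdx genes with each array's value, and of the other lists the called genes. The members and lists were chosen with earlier results of these data known. Alternatives changed the offset, background correction, scaling, filter, probe rule, threshold, arrays fitted and replicate block, and left out each array. The number of arrays limits the precision.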

Additional observations from a re-analysis of the deposited data

Results flagged for a closer look

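Both results below stood out because the change from Flk1+ cells to progenitors differed between the genotypes when that difference itself was tested in limma. For Hoxb1 it was -1.43 ± 0.34 (adjusted p = 0.0372), more negative in Sp1-/- cells. Its call was lost in 3 of 19 alternatives: without replicate 2 of the Sp1+/+ Flk1+ arrays (-0.89), with the processed signal (-1.44) and with only the arrays compared. Hoxb1 was at background in the progenitors of both genotypes. For Hoxb7 it was 2.38 ± 0.57 (adjusted p = 0.0352), and it was called under every alternative run, with values of 1.75 to 3.69.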

How the results depend on the processing

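Of 42 called values of single members, none changed direction under any alternative. With scaling of the processed signal by its 75th percentile, the counts were 13 in Flk1+ cells, 14 in progenitors, 13 and 15 over the course in Sp1+/+ and Sp1-/- cells, 37 over the Sp1-/- steps and 5 for the difference of the courses, in place of 8, 7, 8, 7, 21 and 2. This scaling moved the median of all genes by 0.19 in HE1, by -0.11 over the Sp1+/+ course and its first step, and by 0.11 for the difference of the courses. With only the arrays compared the counts were 4 in Flk1+ cells, 8 in HE2 and 1 for the difference of the courses. An adjusted p of 0.05 gave 5 in Flk1+ cells, and no fold threshold gave 11 over the Sp1-/- course and 5 for the difference of the courses. Leaving out 1 array gave 3 to 13 in Flk1+ cells, 1 to 6 in HE1, 4 to 6 in HE2, 3 to 7 in progenitors, 5 to 13 over the Sp1+/+ course, 5 to 6 over the Sp1-/- course, 15 to 27 over the Sp1+/+ steps, 18 to 22 over the Sp1-/- steps and 2 to 4 for the difference of the courses. The lone array left in a group was assumed to vary like the other groups. Whether replicate numbers pair the samples was not settled, and the main fit took the arrays as unpaired. Correlations of the replicate difference between groups ran from -0.174 to 0.503 over 28 pairs of groups, 11 of them over 0.1. With the replicate block the counts in the 4 populations were 8, 5, 5 and 6, with Hoxd9 in progenitors the only call lost. The causes of these shifts were not tested, and signal near background limits the dim HoxC and posterior genes.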
